A study of Mus musculus with 2 samples.

Results

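A set of 9 genes known for high activity in fetal tissue and for reappearing in tumours was followed here in the liver of the mouse embryo. They are the RNA-binding protein genes Lin28a and Lin28b, the mRNA-binding protein genes Igf2bp1, Igf2bp2 and Igf2bp3, the chromatin protein genes Hmga1 and Hmga2, the transcription factor gene Arid3a and the cell-surface proteoglycan gene Gpc3. The members were chosen by symbol: every gene and transcript entry that GENCODE assigns on the mouse assembly GRCm38 to 1 of these symbols was taken, which gave 9 of 43346 genes and 36 of 103639 transcripts. The data are total RNA sequencing of whole liver from B6NCrl embryos at embryonic day 15.5, in 2 libraries that are biological replicates of 1 group. Replicate 1 was made from livers of 78 embryos and replicate 2 from livers of 62 embryos, male and female together, with 10 ng of RNA longer than 200 nt and added spike-in RNAs. There was no treated, mutant, adult or control group, and the pooling means that variation between single embryos was not measured. In whole liver, fewer cells of a type and less RNA per cell cannot be told apart.

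LIN28 proteins bind the loop of precursors of the let-7 microRNAs and hold back their maturation, and mature let-7 in turn represses LIN28 mRNAs together with several other growth genes, so that the pair forms a switch between a fetal and a mature state. IGF2BP proteins bind mRNAs, among them Igf2 mRNA, and affect their stability, transport and translation, and HMGA proteins bend AT-rich DNA and alter chromatin. In mouse fetal liver, Lin28b is known as a regulator of fetal-type blood production, with Igf2bp3, Hmga2 and Arid3a among the genes placed downstream of it. Glypican 3, the product of Gpc3, limits fetal growth and is used in human pathology as a marker of liver cancer.

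The let-7 seed and the places where it could pair with member mRNAs are shown because most of the members hold a match to it. Of 10 mature sequences of the let-7 family listed in RefSeq for GRCm38, 9 share the seed GAGGUAG at bases 2 to 8, and both listed mature miR-125 sequences share the seed CCCUGAG; miR-125 is another microRNA reported to act on Lin28a. Capitals mark the seed. The exception in the let-7 family is miR-202-3p.
mmu-let-7a-5p: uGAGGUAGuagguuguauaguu
mmu-let-7g-5p: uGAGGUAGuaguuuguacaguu
mmu-miR-98-5p: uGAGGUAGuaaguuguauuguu
mmu-miR-202-3p: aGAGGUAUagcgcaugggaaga
mmu-miR-125a-5p: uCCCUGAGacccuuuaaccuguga
mmu-miR-125b-5p: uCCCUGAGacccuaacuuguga

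LIN28 contacts the letters GGAG in the loop side of the let-7 precursor. The letters GGAG followed the mature 5′ arm in 9 of the 12 let-7 and miR-98 hairpins in the RefSeq table, and not in Mirlet7b, Mirlet7c-2 and Mir98. A pair of hairpins is shown, the first with the letters in capitals and the other without them.
Mirlet7g hairpin: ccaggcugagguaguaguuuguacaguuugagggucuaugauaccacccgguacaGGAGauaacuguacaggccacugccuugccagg
Mirlet7b hairpin: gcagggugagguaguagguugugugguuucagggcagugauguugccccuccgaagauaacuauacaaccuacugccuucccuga

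The 3′ untranslated region (UTR) of the leading protein-coding transcript of each member was searched, on the transcribed strand, for the let-7 match CTACCTC with or without a following A and for TACCTCA, and for the miR-125 match CTCAGGG with or without a following A and for TCAGGGA. At least 1 let-7 match was present in 8 of 9 members, 27 matches in all. Gpc3 was the exception, with a 3′ UTR of 359 nt. For the background of all 21028 coding genes with a 3′ UTR, the longest annotated UTR of each gene was searched, not that of its leading transcript. Of these genes, 14.9% held a let-7 match and 19.5% a miR-125 match, but their median UTR of 960.5 nt was shorter than that of all members other than Gpc3. One let-7 site per member is shown with the match in capitals. Each lies within a single exon.
Lin28a, chr4:134005187-134005214, minus strand: agtgcacagcctgttgaaCTACCTCAtt
Lin28b, chr10:45381020-45381047, minus strand: ttcacccgggcgggaagtCTACCTCAtg
Igf2bp1, chr11:95959355-95959382, minus strand: aaccagcagtgctattaaCTACCTCAgc
Igf2bp2, chr16:22059471-22059498, minus strand: aaaacacacaaataaaagCTACCTCAgg
Igf2bp3, chr6:49086785-49086812, minus strand: acgtgcatttttactcaaCTACCTCAgg
Hmga1, chr17:27563274-27563300, plus strand: ttctcctctgttcacaaaCTACCTCtg
Hmga2, chr10:120364222-120364249, minus strand: ggcgccgacattcaatttCTACCTCAgc
Arid3a, chr10:79953892-79953919, plus strand: tgcaaggcaagtttctttCTACCTCAgg

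Set beside coding genes whose longest UTRs were within 10% of the same length, the presence of a let-7 match ranged from common to rare. For Igf2bp1, with 5 matches in 6337 nt, 54.7% of 243 such genes also held one. Lin28b had 5 matches in 4445 nt, where 39.4% of 606 genes held at least one. Hmga2, with 7 matches in 2977 nt, was the member with most, against 25.2% of 1121 genes with any. Arid3a had 4 matches in 3082 nt and Lin28a 2 in 2775 nt, where 26.5% of 1075 and 26.0% of 1195 genes held one. Igf2bp2 had 2 matches in 1784 nt and Igf2bp3 had 1 in 2119 nt, where 18.8% of 1473 and 23.9% of 1382 genes held one. Hmga1 had 1 match of 7 bases in 1177 nt, where 12.9% of 1399 genes held one. Of UTRs like that of Gpc3, 4.24% of 873 held a let-7 match.

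Matches to miR-125 were found in 5 of 9 members. Arid3a held 7 of the 11 matches in all, and 40.5% of 1075 genes with UTRs of like length held at least one. Lin28a, Lin28b, Igf2bp3 and Hmga2 had 1 each, which is 8 bases long in Lin28a and Lin28b. Of genes with UTRs like theirs, 35.5%, 46.9%, 31.3% and 37.9% held at least one, in that order. Igf2bp1, Igf2bp2, Hmga1 and Gpc3 had none, where 63.8%, 25.8%, 19.5% and 6.07% of genes with UTRs of like length held one. One of the Arid3a matches overlaps a let-7 match of the same UTR, since TACCTCA and CTCAGGG share letters. These matches describe the letters of the annotated UTRs and were not measured as binding.
Lin28a, miR-125 match, chr4:134005299-134005326, minus strand: ctcaggtacatgagcaatCTCAGGGAta
Lin28b, miR-125 match, chr10:45378796-45378823, minus strand: tcaggacaaagaactttgCTCAGGGAac
Arid3a, overlapping matches, miR-125 letters in capitals, chr10:79954225-79954251, plus strand: ttactgtccacctggtacCTCAGGGct

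**Figure D1:**
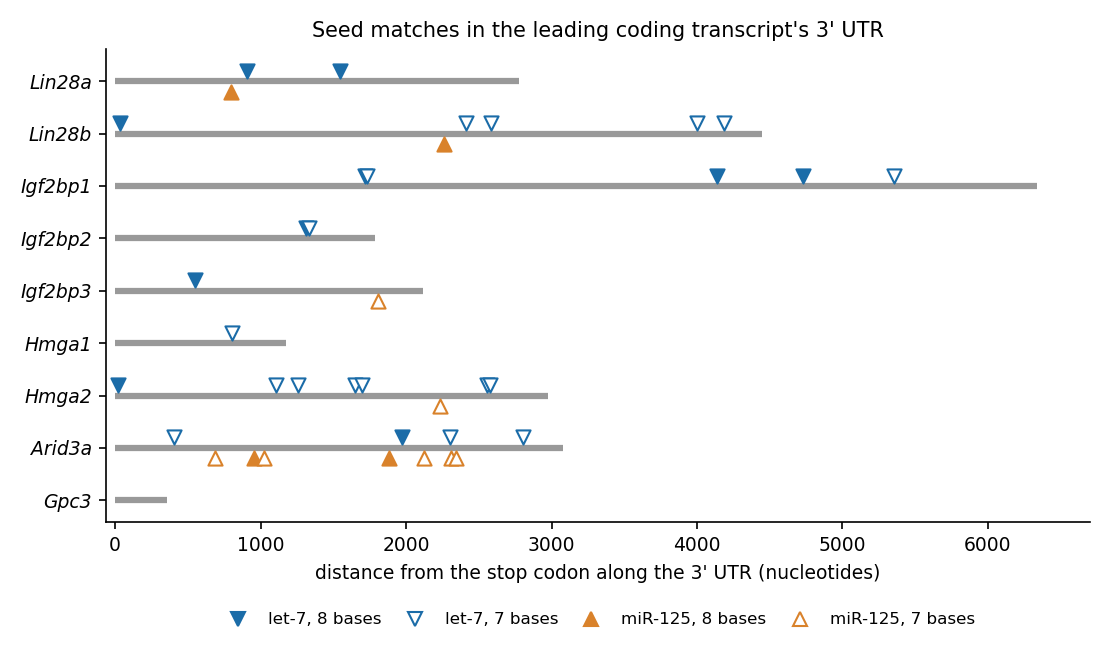
Positions of let-7 matches (triangles pointing down) and miR-125 matches (triangles pointing up) along the 3′ UTR of the leading coding transcript of each member; the x axis is the distance in nucleotides from the stop codon, filled symbols are 8-base matches and open symbols 7-base matches. Hmga2 has 7 let-7 matches, Arid3a 7 miR-125 matches, and the 359 nt UTR of Gpc3 has none.

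Mature microRNAs cannot be read from these libraries. The files hold 13 let-7, miR-98 and miR-125 precursor genes, whose effective length (the number of positions from which a fragment could start) was 9 nt at most, and all 13 had 0 counts in both libraries. Among 13 measured host, neighbouring and precursor genes of these microRNAs, 10 were at 0 and 3 were detected. The long noncoding host gene Mir99ahg had 1.74 TPM in replicate 1 and 1.94 TPM in replicate 2. Huwe1, which hosts let-7f-2 and miR-98 in an intron, had 14.9 and 12.7 TPM, and Wdr82, at the let-7g locus, had 6.29 and 6.71 TPM.

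Depth, as the estimated read counts assigned to genes without spike-ins, was 34039426 in replicate 1 and 44200838 in replicate 2. Levels are in TPM, a measure of abundance in which all genes of a library share 1 fixed total, corrected for transcript length and rescaled after spike-ins were left out. The tissue label fitted its markers: all 15 hepatoblast and hepatocyte markers and all 13 erythroid markers reached 1 TPM in both libraries. Summed hepatocyte markers were 50879 TPM in replicate 1 and 41083 TPM in replicate 2, and summed erythroid markers were 384928 and 393021 TPM. Markers of neighbouring organs were also present, with exocrine pancreas at 72.1 and 16.9 TPM (4 of 7 detected) and muscle at 188 and 290 TPM (6 of 7 detected). Over 17602 genes the libraries differed by a chi-square of 18.04 per degree of freedom, so they were not 1 library deposited in duplicate.

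The 9 members spanned more than 2 orders of magnitude, with Gpc3 and Hmga1 high, the Igf2bp genes and Arid3a in the middle, and Lin28b, Hmga2 and Lin28a low. Both libraries had to reach 1 TPM for a gene to count as detected, and 8 of 9 members did. The background was 53.1% of 21474 protein-coding genes and 28.4% of all genes. The exception was Lin28a, below 1 TPM in replicate 1. The median member level was 7.69 TPM, against 11.5 TPM over all detected coding genes. Shares of coding genes that a member lay above, given below, are of all 21474, detected or not. In the order of levels (Gpc3, Hmga1, Igf2bp3, Igf2bp1, Igf2bp2, Arid3a, Lin28b, Hmga2, Lin28a), the 2 libraries of each gene lay apart from those of its neighbour for all 8 neighbouring pairs. The narrowest steps were between Igf2bp3 and Igf2bp1, 1.14-fold in replicate 1 and 1.20-fold in replicate 2, and between Igf2bp2 and Arid3a, 1.07-fold and 1.40-fold. In replicate 1 the deposited credibility intervals of TPM overlapped for Igf2bp3 (13.1 to 14.4) and Igf2bp1 (10.7 to 14.2). They also overlapped there for Igf2bp2 (7.05 to 8.94) and Arid3a (5.62 to 8.06). Those of Hmga2 and Lin28a overlapped in both libraries. With 2 libraries of 1 group, an exact two-sided sign test cannot go below p = 0.5, so no test of these orders is given.

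**Figure D2:**
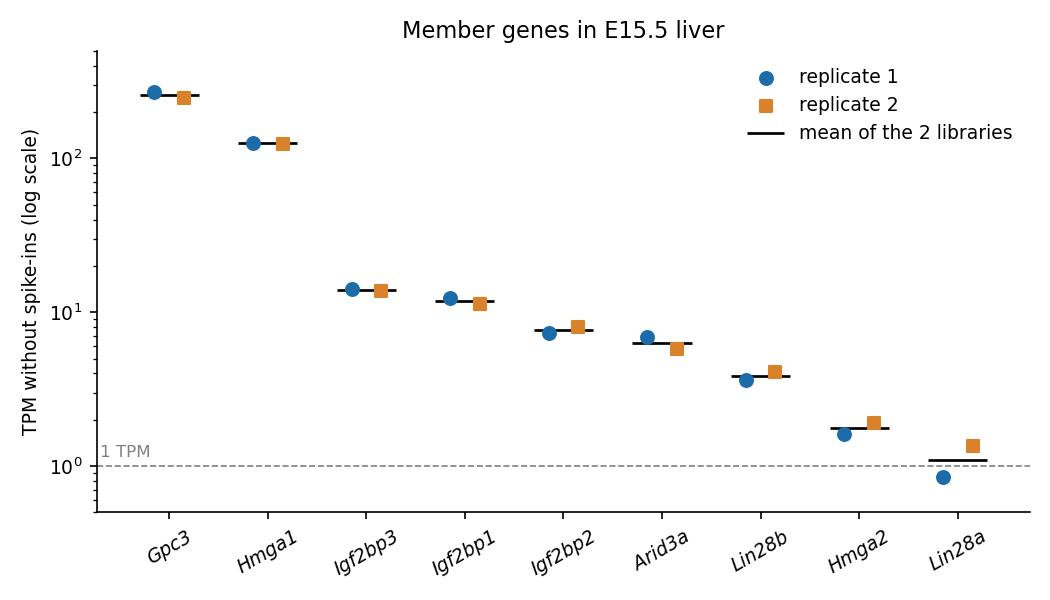
Level of each member in TPM without spike-ins (y axis, log scale) in replicate 1 (circles) and replicate 2 (squares), with a bar at the mean of the 2 libraries and a dashed line at 1 TPM. Gpc3 averaged 258 TPM and Lin28a 1.10 TPM, and Lin28a is the only member with a library below the line.

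Lin28b, the paralog that in the mouse is tied to fetal blood production, was higher than Lin28a, the paralog best known from embryonic stem cells. Lin28b (chr10:45376620-45486395, minus strand) had 3.63 TPM in replicate 1 and 4.10 TPM in replicate 2, from 598 and 912 expected counts. It averaged 3.86 ± 0.334 TPM (SD, n = 2) and lay above 58.9% of coding genes. Lin28a (chr4:134003330-134018841, minus strand) had 0.849 and 1.35 TPM from 76 and 130 counts, an average of 1.10 ± 0.356 TPM (SD, n = 2), above 46.7% of coding genes.

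Lin28b exceeded Lin28a by 4.27-fold in replicate 1 and 3.03-fold in replicate 2, a mean log2 ratio of 1.85 ± 0.349 (SD, n = 2). The spread of that ratio came with the split of Lin28a reads between 2 transcripts. The full-length Lin28a-201 held 82.9% of Lin28a TPM in replicate 1 and 64.1% in replicate 2. The rest went to Lin28a-202, a 394 nt fragment of the gene to which only 1.32 and 6.01 expected counts were assigned, and short transcripts gain TPM from few reads. With the full-length coding transcripts alone, the log2 ratio was 2.30 ± 0.0870 (SD, n = 2). The coding sequences of the pair, 816 nt in Lin28b and 630 nt in Lin28a, were identical at 71.5% of aligned bases, and Lin28b had a single transcript in the files.

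The enzymes known to act with LIN28 on let-7 precursors, Tut7, Tut4 and Dis3l2, had higher levels than Lin28b in both libraries. Of 23 measured genes in a list of the LIN28 and let-7 pathway, 18 were detected, Lin28b among them, and the list median was 5.51 TPM in replicate 1 and 4.85 TPM in replicate 2. The highest were Ddx5 and Tarbp2, which assist Drosha and Dicer, at 105 and 45.6 TPM in replicate 1 and 107 and 41.5 TPM in replicate 2. Tut7, a uridylyl transferase that tags LIN28-bound precursors, had 26.5 and 24.2 TPM. Its relative Tut4 had 16.4 and 15.2 TPM, and Dis3l2, the exonuclease that degrades tagged precursors, had 9.24 and 7.89 TPM; these 2 genes were picked for their place in the pathway after their values were seen. Dgcr8, the partner of Drosha, had 11.95 TPM in replicate 1 and 9.96 TPM in replicate 2. That was the widest log2 ratio between libraries among list genes at 5 TPM or more in either. The Argonaute gene Ago4 was lowest at 0.166 and 0.279 TPM.

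Among 24 genes long studied as let-7 targets, 4 of them members (Hmga2, Lin28a, Lin28b and Igf2bp1), 22 were detected, and the median over the list was 11.0 TPM (replicate 1) and 10.4 TPM (replicate 2). The ubiquitin-conjugating enzyme gene Cdc34 was highest, with 93.7 TPM in replicate 1 and 91.3 TPM in replicate 2. Hras had 90.1 and 76.4 TPM and Myc 52.1 and 54.3 TPM. The insulin receptor gene Insr had 23.0 and 18.3 TPM, the widest log2 ratio between libraries among list genes at 5 TPM or more in either. Trim71, which like the LIN28 genes marks early embryonic cells, was the lowest at 0.798 and 0.805 TPM. The 4 members in this list were all below 13 TPM.

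All 3 Igf2bp genes were detected, at levels within 2-fold of each other. Igf2bp3 (chr6:49085223-49214957, minus strand) had 14.1 TPM in replicate 1 and 13.6 TPM in replicate 2 (mean 13.9 ± 0.290, SD, n = 2), from 1859 and 2433 counts. Igf2bp1 (chr11:95957163-96005940, minus strand) had 12.3 and 11.4 TPM (mean 11.8 ± 0.673, SD, n = 2), from 2340 and 3143 counts. Igf2bp2 (chr16:22059009-22163299, minus strand), the family member that adult tissues are known to keep, had 7.35 and 8.03 TPM (mean 7.69 ± 0.478, SD, n = 2), from 730 and 1115 counts. They lay above 76.2%, 73.9% and 67.6% of coding genes in that order.

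Igf2bp1 and Igf2bp3, which are known as the more strictly fetal genes of the family, lay above Igf2bp2 in both libraries. Igf2bp3 exceeded Igf2bp2 by 1.91-fold in replicate 1 and 1.70-fold in replicate 2 (log2 ratio 0.85 ± 0.120, SD, n = 2). Igf2bp1 exceeded Igf2bp2 by 1.67-fold and 1.41-fold (0.62 ± 0.172, SD, n = 2). Igf2bp1 stood at 0.875 and 0.832 times Igf2bp3 (-0.23 ± 0.0519, SD, n = 2), and this order turned round to 0.35 with counts not corrected for length, since Igf2bp1 mRNA is the longer. Coding sequences of 1734 nt in Igf2bp1, 1779 nt in Igf2bp2 and 1740 nt in Igf2bp3 were identical at 69.8% to 70.9% of aligned bases in pairs.

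The order among the Igf2bp genes widened when only the leading coding transcripts were counted, because much of the Igf2bp2 level was assigned to a transcript annotated as noncoding. Igf2bp2-207, annotated as a retained intron, held 53.6% of Igf2bp2 TPM in replicate 1 and 54.3% in replicate 2. The coding transcript Igf2bp2-201 held 35.3% and 39.9%. Noncoding transcripts together held 61.1% ± 1.38 (SD, n = 2). Of the 3267 bases of Igf2bp2-207, however, 3259 are also exon bases of Igf2bp2-201, so only 8 bases are its own, and Igf2bp2-201 has 640 bases that Igf2bp2-207 lacks. How many reads tell the 2 transcripts apart was not measured. On coding transcripts alone, Igf2bp3 exceeded Igf2bp2 by a log2 ratio of 2.26 ± 0.245 and Igf2bp1 exceeded it by 1.62 ± 0.212 (SD, n = 2).

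Igf2bp1 and Igf2bp3 differed in how their reads were divided. The coding transcript Igf2bp1-201, 8378 nt long, held 72.1% of Igf2bp1 TPM in replicate 1 and 78.4% in replicate 2. A processed transcript of 576 nt, Igf2bp1-205, held 20.7% and 18.4% on only 37.9 and 41.8 counts. Igf2bp3 had 1 transcript in the files. Of its 4345 exon bases, 1529 overlap exons of Malsu1, a mitochondrial ribosome assembly gene on the opposite strand with 26.5 and 29.3 TPM, and Igf2bp3 counts were not whole numbers. Counts were 1858.52 and 2432.66 for Igf2bp3 and 633.48 and 956.34 for Malsu1. They add to a whole number in each library, so reads appear to have been divided between these opposite-strand genes. The strand setting of the counting is not given in the sources used here. Reads in that overlap cannot be assigned to one gene with certainty, and how far the Igf2bp3 level depends on their division was not tested.

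RNAs that IGF2BP proteins are known to bind ranged from among the highest in the tissue to undetected. Of 13 such genes measured, 9 were detected, and the median over the list was 14.0 TPM (replicate 1) and 13.6 TPM (replicate 2). Actb had 2493 TPM in replicate 1 and 2548 TPM in replicate 2. The fetal growth factor gene Igf2, from which the family takes its name, had 635 and 573 TPM, and the imprinted noncoding RNA H19 had 548 and 460 TPM, the widest difference of the list. Ptgs2 was lowest, with 0 and 1 count. IGF2BP proteins also count as readers of the RNA mark m6A, and all 20 other m6A writers, erasers and readers listed were detected, and the list median was 15.5 TPM (replicate 1) and 14.8 TPM (replicate 2). They were led by the RNA-binding protein genes Hnrnpa2b1 (431 and 456 TPM) and Hnrnpc (96.6 and 105 TPM) and the writer subunit gene Wtap (34.2 and 38.6 TPM). The eraser gene Fto had 17.9 and 15.6 TPM, and the reader gene Ythdc2 was lowest at 1.97 TPM in both.

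Hmga1 was far above Hmga2. Hmga1 (chr17:27556497-27563674, plus strand) had 126 TPM in replicate 1 and 124.6 TPM in replicate 2 (mean 125.4 ± 1.07, SD, n = 2), from 5775 and 7616 counts, and lay above 96.5% of coding genes. Hmga2 (chr10:120361275-120476469, minus strand) had 1.61 and 1.91 TPM (mean 1.76 ± 0.215, SD, n = 2), from 181 and 289 counts, and lay above 50.7%. Hmga2 thus stood at 0.0127 and 0.0153 times Hmga1, a log2 ratio of -6.16 ± 0.189 (SD, n = 2), which makes Hmga1 78.6-fold and 65.3-fold the higher. The short coding sequences, 327 nt in Hmga2 and 291 nt in the leading Hmga1 transcript, were identical at 66.5% of aligned bases.

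Hmga1 makes a longer and a shorter protein by use of alternative splice donor sites, known as HMGA1a and HMGA1b. The insert of the longer form is shown because the libraries held both forms at similar levels. It covers 33 nt, or 11 codons, of coding exon at chr17:27559671-27559703 on the plus strand. The transcripts shown also differ elsewhere in the coding sequence, which is 321 nt in Hmga1-203 and 291 nt in Hmga1-201, or 30 nt apart. The insert is given in capitals with 15 coding bases on either side in the spliced mRNA.
Hmga1-203, with the insert: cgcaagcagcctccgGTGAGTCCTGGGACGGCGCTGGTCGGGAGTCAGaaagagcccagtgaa
Hmga1-201, without it: cgcaagcagcctccgaaagagcccagtgaa

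The 3 transcripts with the insert held 42.3% of Hmga1 TPM in replicate 1 and 48.4% in replicate 2, and those without it held 57.7% and 51.6%. In TPM, the form with the insert had 53.3 and 60.3 and the form without it 72.8 and 64.3. The form without the insert was thus the larger in both libraries, and the shares were 45.3% ± 4.34 and 54.7% ± 4.34 (SD, n = 2). Hmga1-201 alone held 54.6% and 48.2%, and Hmga1-203 held 35.8% and 39.2%. The insert and exon edges were read from the M21 models, whose lengths differ for this gene from those quantified. Hmga1-201 has 1593 nt in the files and 1631 nt in M21, Hmga1-203 has 1635 and 1595 nt, and Hmga1-205 has 529 and 1045 nt. The grouping of shares by insert holds only as far as the quantified models carry the same exon edges, which was not tested.

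Copies and overlapping genes limit both HMGA values. The gene entry Hmga1b, a near-identical copy of Hmga1 on another chromosome, is identical to the coding sequence of Hmga1-203 at all 321 aligned bases. It was assigned 0.849 TPM in replicate 1 and 2.14 TPM in replicate 2, and adding it to Hmga1 left the log2 ratio of Hmga2 over Hmga1 at -6.18. Hmga2-201 held 99.4% and 100% of Hmga2 TPM. An antisense gene, 1700006J14Rik, shares 140 exon bases with Hmga2 and had 2.65 and 3.20 TPM, above Hmga2 in both libraries. Its counts, 102.28 and 180.68, add to a whole number with those of Hmga2, 180.72 and 289.32. How far the Hmga2 level depends on a division of reads between them was not tested. Counts of Hmga1 and Hmga2 were not whole, as for Igf2bp3, whereas those of the other 6 members were whole to 2 decimals.

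Hmga1 lay above the median of the high-mobility-group chromatin genes, which was 85.9 TPM in replicate 1 and 91.2 TPM in replicate 2. Of 11 measured, 9 were detected. Hmgn2 had 472 TPM in replicate 1 and 569 TPM in replicate 2. Among list genes at 5 TPM or more in either library, its log2 ratio between libraries was the widest. Hmgb1 had 361 and 416 TPM, Hmgb2 167 and 194 TPM and Hmgb3 162 and 172 TPM. Like Hmgn2, they were above Hmga1 in both libraries. Hmgb4, best known from testis, had 0 counts in both, which allows up to 3 counts in each library.

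Arid3a is an AT-rich DNA-binding factor also called Bright and known for a role in B lymphoid and blood stem cells. Its level was below the 11.5 TPM median of detected coding genes. Arid3a (chr10:79927043-79955018, plus strand) had 6.86 TPM in replicate 1 and 5.73 TPM in replicate 2 (mean 6.29 ± 0.798, SD, n = 2), above 64.9% of coding genes. By TPM, its leading transcript held the smallest mean share among the members, though not by counts. In replicate 2 the share of Hmga1-201 was smaller, at 48.2%. The coding Arid3a-201, 5361 nt long, held 44.6% and 51.5%. Arid3a-204, of 691 nt, held 35.7% and 25.2%, and the noncoding Arid3a-205 held 19.6% and 19.5%. By counts, Arid3a-201 held 81.0% and 80.3% of the 620 and 812 expected counts.

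Within the ARID family, 14 of 15 genes were detected, and the median over the list was 7.41 TPM (replicate 1) and 6.99 TPM (replicate 2). The histone demethylase gene Kdm5c was highest and differed most, with 23.0 TPM in replicate 1 and 18.5 TPM in replicate 2. Arid4a had 19.1 and 19.2 TPM and Arid4b 14.2 and 15.5 TPM. The nearest paralogs of Arid3a lay on either side of it: Arid3b had 10.5 and 9.66 TPM, and Arid3c had 1 and 0 counts. B lymphoid markers, another setting of Arid3a, summed to 41.7 and 31.8 TPM, with 6 of 9 detected. Blood stem and progenitor markers summed to 78.1 and 75.7 TPM, with 10 of 11 detected. Their part in the level of Arid3a was not tested.

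Gpc3 was the highest member. Gpc3 (chrX:52272426-52613950, minus strand) had 268 TPM in replicate 1 and 248 TPM in replicate 2 (mean 258 ± 13.9, SD, n = 2), from 17570 and 21963 counts, and lay above 98.4% of coding genes. It made up 60.8% and 59.2% of the summed member levels, which were 441 and 419 TPM. Gpc3-201 held 96.7% and 97.2% of its TPM and Gpc3-202 the rest.

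Gpc3 was also far above the other glypicans. Of 18 glypican and heparan sulfate genes measured, 15 were detected, and the median over the list was 4.71 TPM (replicate 1) and 4.44 TPM (replicate 2). Gpc4 had 4.69 TPM in replicate 1 and 4.57 TPM in replicate 2, Gpc1 3.75 and 4.30 TPM, and Gpc6 3.32 and 2.84 TPM. Gpc2 had 0.580 and 0.434 TPM, and Gpc5 had 2 and 0 counts. Next to Gpc3 in the list were Cd81, a membrane protein known as a partner of glypican 3, at 130 and 122 TPM, and the syndecan gene Sdc4 at 58.7 and 50.9 TPM. Hs6st1, a heparan sulfate sulfotransferase gene, had 16.1 and 12.2 TPM, the widest log2 ratio among list genes at 5 TPM or more in either library.

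**Figure D3:**
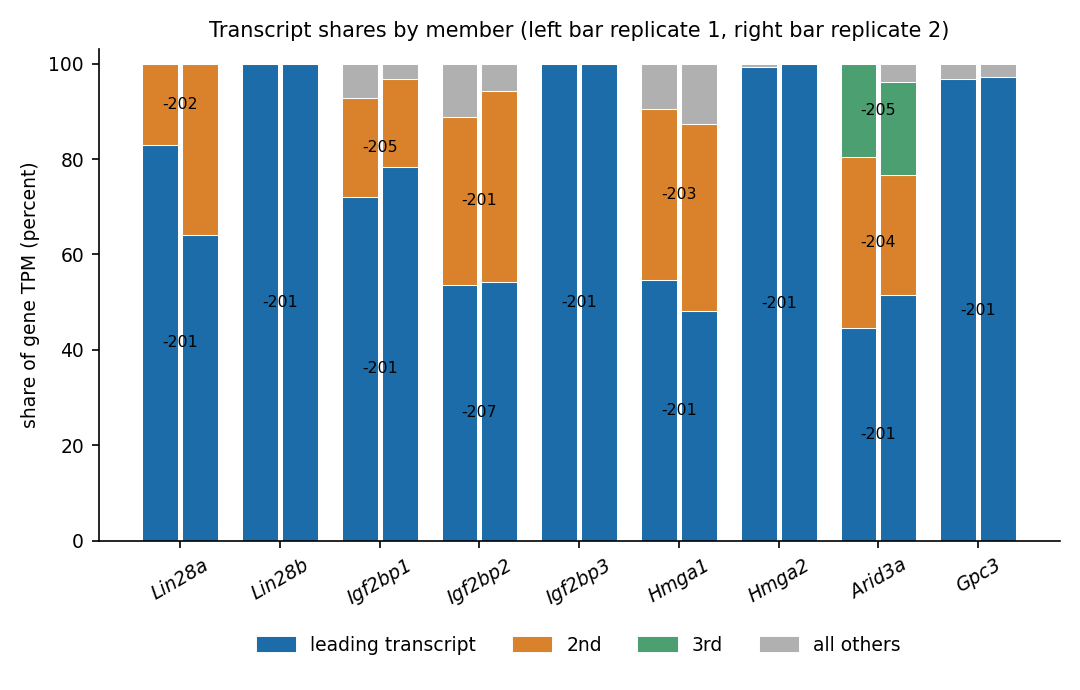
Share of each member's gene TPM (y axis, percent) held by its transcripts in replicate 1 (left bar) and replicate 2 (right bar); numbers are the transcript suffixes, and grey collects transcripts below 10% in both libraries. One transcript held nearly all of Lin28b, Igf2bp3, Hmga2 and Gpc3, while Igf2bp2-207 led Igf2bp2 with 53.6% and 54.3%.

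In all 7 members with more than 1 transcript in the files, the same transcript led in both libraries. Its share averaged at least 50% in 6 of them, with Arid3a below that at 48.1% ± 4.87 (SD, n = 2). In Lin28a, Igf2bp1 and Arid3a the leader's share by TPM was below its share by counts, since part of the TPM went to short transcripts with few counts.

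No member was more than 2-fold apart between the libraries, which also held for most genes at 5 TPM or more. A gene was taken as different when it had 5 TPM or more in either library and its TPM was more than 2-fold apart between them. This held for 0 of the 6 members that reached 5 TPM, against a background of 0.809% of 8781 genes. The log2 ratios of TPM + 1, replicate 1 over replicate 2, ran from -0.35 in Lin28a to 0.22 in Arid3a. By TPM, 5 members were higher in replicate 1 and 4 in replicate 2. The median absolute log2 ratio was 0.11 in the 6 members and 0.11 over all 8781 genes.

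Counting error alone was exceeded in a few members. The exact 95% interval of the count ratio, scaled by library totals, lay off 1 in 2 of the 6 members, against a background of 49.5% of genes. Igf2bp2 had a ratio of 0.850 (interval 0.773 to 0.934) and Gpc3 of 1.04 (1.02 to 1.06). Below the level filter, Lin28b had 0.851 (0.767 to 0.945) and Hmga2 0.811 (0.672 to 0.983). Lin28a had the widest interval, 0.759 (0.564 to 1.02), on 76 and 130 counts. These intervals cover counting error only, and with 1 library on each side there is no replicate check of the difference.

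TPM and counts parted where the transcript split differed between libraries. Lin28a had a TPM ratio of 0.628 against a count ratio of 0.759, and Arid3a had 1.197 against 0.991. Igf2bp1 had 1.08 against 0.967. Directions in TPM of Igf2bp1, Igf2bp3, Hmga1 and Arid3a turned round under count scaling by TMM, by DESeq2 size factors, by library totals and by spike-ins, and that of Gpc3 turned round under spike-in scaling alone. These scalings moved the median log2 ratio of the genes at 5 TPM or more (8781 by TPM, 8770 with counts in both libraries), which was 0.04 by TPM, by -0.06, -0.06, -0.04 and -0.19 in that order. The changes of Igf2bp3 and Hmga1 were of about the size of that common shift, so their change of sign is not particular to them. Under spike-in scaling that median was -0.14, and Gpc3 at -0.09 lay above it. Lin28a, Lin28b, Igf2bp2 and Hmga2 were lower in replicate 1 under all of these.

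**Figure D4:**
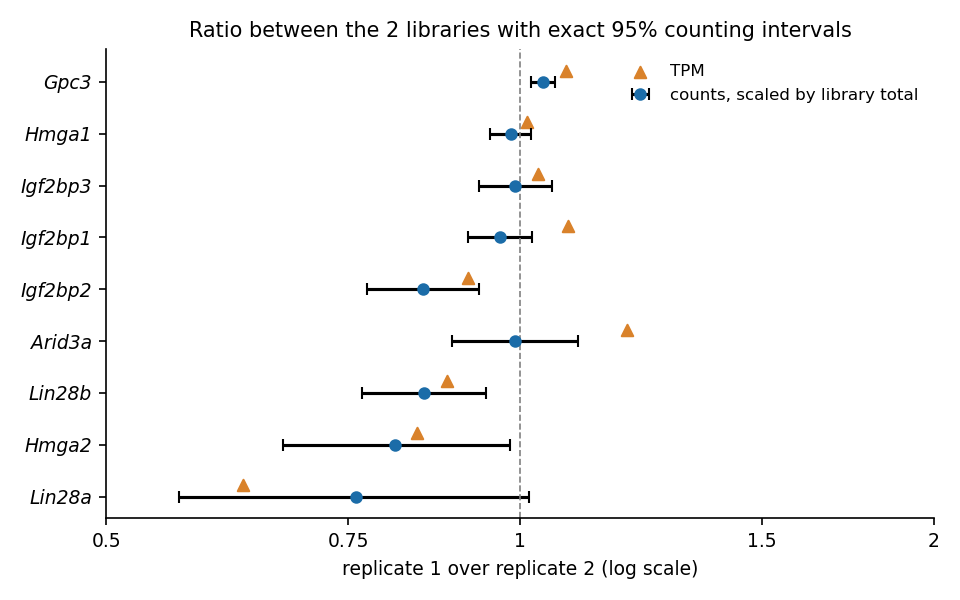
Ratio of replicate 1 over replicate 2 (x axis, log scale) for each member as counts scaled by library total (circles, with exact 95% counting intervals) and as TPM (triangles). All ratios lie between 0.5 and 2, and the intervals of Gpc3, Igf2bp2, Lin28b and Hmga2 do not include 1.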

How the data were processed

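Both libraries of 1 group were quantified by the authors. The deposited gene and transcript tables have RSEM column names. Per the companion descriptions they were made on mm10 with annotation M4; which aligner and quantifier were run is not given in the sources used here. Values are as follows. The deposited expected counts are unscaled estimates per feature. The deposited TPM and FPKM are the authors' length-normalised values with spike-ins in the total, and posterior mean TPM is deposited beside them. The deposited transcript shares are in percent, and the deposited credibility bounds of TPM (treated as a score) were not used for calls.

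From these, TPM was rescaled without spike-ins (2.24% and 2.03% of counts in replicates 1 and 2). Entries with numeric identifiers (15.0 and 24.9 counts) were not used. Expected counts were rounded to whole numbers for scaling factors and intervals. Names, coordinates, transcript sequences and UTRs came from GENCODE M21 on GRCm38, a later annotation than M4, and microRNAs from RefSeq on GRCm38.p6. Coding sequences were aligned globally with Biopython 1.88. Values are the mean and SD of 2 libraries. Count ratios have exact Clopper-Pearson 95% intervals, which were checked on simulated data. A count of 0 was taken to allow 3 counts of the library total. Both cover the counting error of reads only, and not the uncertainty of dividing shared reads among features. PCR reads without molecular identifiers are not independent molecules, so the intervals may be too narrow even for counting error. p-values are not given, since there is 1 library on each side.

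All 9 members are named. Each of 9 related lists gives its 3 highest genes, its lowest, its widest difference between libraries at 5 TPM or more, and paralogs of members. The members and lists were chosen with earlier results of these data known. The lists held 148 measured genes of 157 symbols. Transcripts at 10% or more of their gene are named. Alternatives were posterior mean TPM, FPKM, counts, other pseudocounts, limits and filters, scaling by TMM (edgeR 4.0.16), DESeq2 1.42.0 size factors or spike-ins, and each library alone. Coding transcripts alone and Hmga1 summed with Hmga1b were added after the data were seen. Computation ran in R 4.3.3 and in Python 3.11.15 with SciPy 1.17.1, pandas 2.3.3, NumPy 2.4.6 and matplotlib 3.10.9.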

Additional observations from a re-analysis of the deposited data

How the results depend on the processing

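No paired analysis was possible because both libraries belong to 1 group. The number of members detected was 8 and lay between 6 and 9 under the other limits and units. The count of members over 2-fold between libraries stayed at 0, the number of members with a leading transcript at 50% or more ran from 7 to 9 (2 members have a single transcript), and detected list genes ran from 85 to 128 against 118. Summed member levels were 430 TPM, against 392 as FPKM, which is another scale. Without correction for length, log2 ratios became 2.89 for Lin28b over Lin28a, 1.59 for Igf2bp1 over Igf2bp2, 1.24 for Igf2bp3 over Igf2bp2, 0.35 for Igf2bp1 over Igf2bp3 (the order turned round) and -4.86 for Hmga2 over Hmga1. With leading coding transcripts alone they became 2.30, 1.62, 2.26, -0.64 and -5.20 in the same order. A pseudocount of 1 TPM gave 1.22 for Lin28b over Lin28a and -5.52 for Hmga2 over Hmga1. Each library alone gave 1.60 to 2.09, 0.50 to 0.74, 0.76 to 0.93, -0.27 to -0.19 and -6.30 to -6.03, and summed levels of 419 to 441 TPM. For single members across alternatives, 45 levels, 29 ratios between libraries and 27 transcript shares kept within the tolerance (the spread of the main values, or 0.1 on the log2 scale for ratios), while 9, 25 and 8 moved beyond it. Depth limits Lin28a most, with 76 and 130 counts.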

Other observations

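Other genes of fetal growth gave a wider range than the members. Of 25 oncofetal and fetal growth genes listed, 19 were detected. The fetal serum protein gene Afp had 11399 TPM in replicate 1 and 10353 TPM in replicate 2, far above Gpc3, with which it is used as a marker of human liver cancer. Igf2 and H19, imprinted neighbours, had 635 and 548 TPM in replicate 1 and 573 and 460 TPM in replicate 2. H19 had the widest log2 ratio between libraries among list genes at 5 TPM or more in either. Zhx2, known in the mouse as a repressor of Afp and Gpc3 after birth, was the lowest at 0.653 and 0.506 TPM.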
